A study of Mus musculus with 5 samples.

Results

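The 10 genes described here encode bone morphogenetic proteins (BMPs), their close relatives and antagonists. They were the ligand genes Bmp2, Bmp3, Bmp4, Bmp5, Bmp6, Bmp7, Gdf6 and Gdf7 and the antagonist genes Nog and Grem1. The genes were chosen by name, with earlier results of these data known. A peak counted for a gene when it touched the gene body or the 5 kb on each side of it, here called the locus, with gene positions from GENCODE M21 on the mouse build GRCm38. The loci held 12 of the 22757 peaks called in H3K27me3 replicate 1 against input, 9 of the 24881 peaks called in the same library against IgG, and 13 of the 33379 peaks called in replicate 2 against input. For comparison, 21938 nuclear protein-coding genes were treated in the same way.

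H3K27me3 had been profiled in the mesenchyme of molars from C57BL/6 wildtype mice, 3 days after birth, once the epithelium was stripped away. Of the 5 libraries, 2 were immunoprecipitated with an H3K27me3 antibody, 2 were inputs and 1 was made with IgG. The study's methods, however, describe its mice as of mixed background. All 5 libraries came from the same genotype and age, so there was no treated or mutant group. Whether different animals or pools of animals gave the pair of H3K27me3 libraries is not stated. An SD given here is therefore the spread between 2 libraries, which may be technical, and no test between groups could be made.

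BMPs are secreted ligands of the TGFβ superfamily. They bind pairs of type I and type II serine/threonine kinase receptors, which activate receptor Smads that enter the nucleus with Smad4, while antagonists such as Noggin (Nog) and Gremlin 1 (Grem1) bind the ligands outside the cell and keep them from their receptors. During tooth development BMPs pass between epithelium and mesenchyme, and Bmp4 is a known early signal of the mesenchyme. H3K27me3 is placed by PRC2, in which Ezh2 is the methyltransferase, and is a mark of repressed developmental genes.

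H3K27me3 peaks were found at 7 of the 10 loci in at least 1 of the 3 lists, and at Bmp2, Bmp4 and Nog in none. Among protein-coding genes 49.0% had a peak in at least 1 list. In replicate 1 against input 4 of 10 loci had a peak, compared with 25.0% of all genes. Against IgG it was also 4 of 10, compared with 25.9%. In replicate 2 it was 7 of 10, compared with 35.7%. Bmp3, Bmp6, Gdf6 and Grem1 had a peak in both replicates, which is 4 of 10 loci against 15.7% of all genes. Every member with a peak in replicate 1 against input had a peak in replicate 2, while Bmp5, Bmp7 and Gdf7 had peaks in replicate 2 and none in replicate 1 against input. With the IgG-called peaks standing for replicate 1 the number was again 4 (16.2% of all genes), but Gdf7 took the place of Bmp3. With replicate 2 reduced to as many peaks as replicate 1 had, Grem1 was the 1 member left of 10, while 13.3% of all genes had a peak in both, so that the members no longer stood above the other genes. The other BMP pathway genes described further on went from 12 to 10 of 46 under the same reduction. At a fold enrichment of at least 3 no member had a peak in both replicates (0.251% of all genes), nor at a −log10 p of at least 3 (0.707%).

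Peaks were more frequent at long genes, and the loci ranged from 11.7 kb (Nog) to 165.2 kb (Bmp6). Of the 6 members with a locus of 10 to 30 kb, 2 had a peak in both replicates (Gdf6 and Grem1), where 6.4% of protein-coding genes of that length did. Among loci of 30 to 100 kb it was 1 of 2 members (Bmp3) and 14.6% of genes. Among loci over 100 kb it was 1 of 2 members (Bmp6) and 57.4% of genes, so that a peak in both replicates is common at genes as long as Bmp6.

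**Figure D1:**
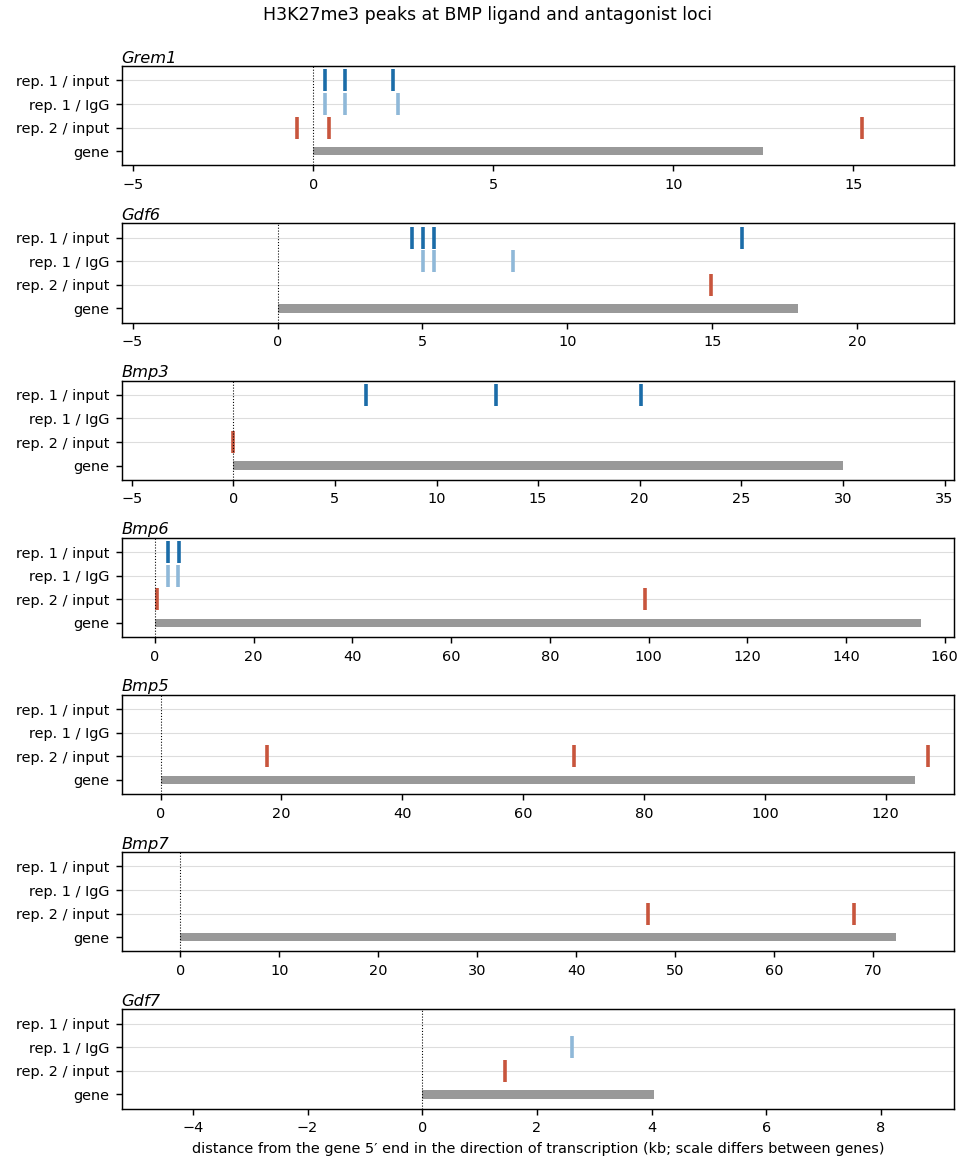
Peaks at the 7 loci that had any, as ticks at the peak centres (tick width is not to scale), by distance in kb from the gene 5′ end in the direction of transcription, with 1 row per list and the gene body in grey. Only at Grem1 do ticks of replicate 1 and replicate 2 stand at the same place, and the 3 intronic ticks of replicate 1 in Gdf6, 4560 to 5471 bp from the 5′ end, have no counterpart in replicate 2.

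Grem1 encodes a secreted antagonist that binds mainly Bmp2, Bmp4 and Bmp7. It was the only member with a peak within 1 kb of its 5′ end in both replicates, which is 1 of 10 members compared with 1.04% of protein-coding genes. The gene (ENSMUSG00000074934.3) lies on chromosome 2, 113746164 to 113758646, on the minus strand. It had 3 peaks in each of the 3 lists. They covered 1.57% of the locus in replicate 1 with input as the control, 1.09% with IgG, and 1.41% in replicate 2. The mean of the replicates against input was 1.49% ± 0.110 (SD, n = 2). In replicate 1 the share exceeded that of 97.2% of all genes, and in replicate 2 that of 95.1%. Only 25.0% and 35.7% of all genes had a peak in these lists and the others tie at 0%. Any locus with a peak thus ranks above most genes, which holds for the ranks of other genes below as well.

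In replicate 1 the Grem1 peaks lay 290, 862 and 2109 bp downstream of the 5′ end, all in the first intron, and were 79, 46 and 228 bp long. Each of them was overlapped by a peak called against IgG. In replicate 2 a peak of 165 bp began 343 bp downstream of the 5′ end, also in that intron. Another peak of 82 bp lay upstream, at positions -507 to -426 from the 5′ end, and one of 71 bp lay in the flank past the 3′ end, where 98.6% of its bases are soft-masked repeats. The replicate 2 peak in the intron and the nearest replicate 1 peak shared 26 bp, the only overlap of the replicates at any of the 10 loci.

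The stretch covered by these overlapping peaks and the upstream peak of replicate 2 are printed here, the first because it is the place called in both libraries and the second because it had the highest pileup at Grem1. The sequences are from the GRCm38.p6 genome, on the minus strand. The first runs over chr2:113758139-113758356, and the capitals mark the 26 shared bases. The second runs over chr2:113759072-113759153, and the capitals mark CpG dinucleotides.
Grem1 intron, both replicates: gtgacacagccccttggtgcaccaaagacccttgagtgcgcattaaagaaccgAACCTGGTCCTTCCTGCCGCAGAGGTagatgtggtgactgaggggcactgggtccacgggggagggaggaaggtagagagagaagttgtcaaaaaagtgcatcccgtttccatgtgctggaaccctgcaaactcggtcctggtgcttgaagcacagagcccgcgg
Grem1 upstream, replicate 2: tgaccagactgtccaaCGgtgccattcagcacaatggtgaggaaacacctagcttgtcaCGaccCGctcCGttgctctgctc
The intronic stretch of 218 bp held 8 CpG (3.67 per 100 bp) and the upstream peak of 82 bp held 4 (4.88 per 100 bp). The median peak held 0.730 CpG per 100 bp in replicate 1 against input and 0.704 in replicate 2.

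These Grem1 peaks were not strong ones. Pileup is the mean number of overlapping tags within a peak, with the bigger of a library and its control scaled down, and fold enrichment is pileup over the control background as MACS computed it. In the intron the pileup was 3.55 in replicate 1, 3.76 against IgG and 6.39 in replicate 2, with fold enrichments of 2.85, 2.78 and 2.53. The upstream peak had a pileup of 7.21, a fold enrichment of 2.83 and a −log10 p of 3.26. In no list did a Grem1 peak reach a fold enrichment of 3.

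Nog, the gene of the antagonist Noggin, had 0 peaks in all 3 lists, where 49.0% of protein-coding genes had a peak in at least 1. Nog (ENSMUSG00000048616.4) is a short gene of 1.70 kb on chromosome 11, 89300638 to 89302332, on the minus strand. Among loci of 10 to 30 kb, such as that of Nog, 6.4% had a peak in both replicates. The nearest peak lay 41.4 kb upstream of its 5′ end in replicate 1 with either control, and 7.09 kb downstream in replicate 2. Flanks of 10 kb in place of 5 kb took in this replicate 2 peak and gave Nog a mean covered share of 0.519%.

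Gdf6 and Gdf7 encode related ligands, of which Gdf6 is known for its part in joint and skull development. Gdf6 (ENSMUSG00000051279.2, chromosome 4, 9844372 to 9862345, plus strand) carried 4 peaks in replicate 1 with input as the control, 3 with IgG, and 1 in replicate 2. Peaks took up 2.15% of the locus in replicate 1, 1.27% with IgG as the control, and 0.547% in replicate 2 (1.35% ± 1.13, SD, n = 2). These values were above those of 97.9% of all genes in replicate 1 and 85.0% in replicate 2, and replicate 1 lay well above replicate 2.

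At Gdf6 the replicate 1 peaks fell into a group of 3 in the first intron, 4560 to 5471 bp downstream of the 5′ end, and another peak in the untranslated part of exon 2. Against IgG, 2 of the 3 intronic peaks were called again, together with a further intronic peak 8086 bp from the 5′ end. The replicate 2 peak touched the coding part of exon 2 and lay 922 bp from the replicate 1 peak in that exon. The longer of the peaks called with both controls, chr4:9849673-9849843 in replicate 1 against input, is shown as the intronic group's example, on the plus strand of GRCm38.p6 with CpG in capitals.
Gdf6 intron, replicate 1: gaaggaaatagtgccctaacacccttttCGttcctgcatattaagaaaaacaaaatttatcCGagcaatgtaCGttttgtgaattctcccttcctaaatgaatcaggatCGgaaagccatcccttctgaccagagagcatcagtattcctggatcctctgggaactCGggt
It held 5 CpG in 171 bp (2.92 per 100 bp), while its GC content was 43.3%, below the median of 46.4% for replicate 1 peaks.

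Gdf7 (ENSMUSG00000037660.5, chromosome 12, 8297918 to 8301954, minus strand), a ligand known from the roof plate of the neural tube, had no peak in replicate 1 when input was the control, 1 when it was IgG, and 1 in replicate 2. Covered shares were 0%, 0.328% and 0.712% in that order, and the mean against input was 0.356% ± 0.504 (SD, n = 2). Both peaks were in the intron, 2588 bp from the 5′ end against IgG and 1392 bp from it in replicate 2, and did not overlap. The replicate 2 peak, chr12:8300463-8300562, is the nearest to the Gdf7 5′ end in any list and is given on the minus strand of GRCm38.p6 with CpG in capitals.
Gdf7 intron, replicate 2: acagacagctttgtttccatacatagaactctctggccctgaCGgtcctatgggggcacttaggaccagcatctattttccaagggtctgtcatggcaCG

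Bmp3, a ligand that counteracts other BMPs and is abundant in bone, had a peak over its 5′ end in replicate 2 but not in replicate 1. The gene (ENSMUSG00000029335.5) spans 98854415 to 98884396 on the plus strand of chromosome 5. Replicate 2 had 1 peak, from 125 bp upstream to 55 bp downstream of the 5′ end, with a pileup of 6.00, the lowest in that list, and a −log10 p of 2.45. Replicate 1 had 3 intronic peaks of 46, 71 and 46 bp, none closer than 6508 bp, and called against IgG it had 0. The covered shares were close, 0.408% in replicate 1 and 0.453% in replicate 2 (0.430% ± 0.0318, SD, n = 2). The peaks behind these shares did not overlap. The upstream 125 bp of the replicate 2 peak, chr5:98854290-98854414, show the sequence that meets the gene's start, on the plus strand of GRCm38.p6 with CpG in capitals.
Bmp3 upstream, replicate 2: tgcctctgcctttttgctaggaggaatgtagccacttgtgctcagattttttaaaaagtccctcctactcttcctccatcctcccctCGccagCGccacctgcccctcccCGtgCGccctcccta
All 4 CpG of this stretch lie in the part nearest the gene. The intronic replicate 1 peak farthest from the 5′ end had a pileup of 4.10 and a fold enrichment of 3.22, the highest of the 12 replicate 1 member peaks against input, and it was not called against IgG.

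Bmp6, whose product is best known for the control of iron through hepcidin, had peaks within 5 kb of its 5′ end in each list, but the replicates did not share any bases. It (ENSMUSG00000039004.6) spans 38345107 to 38500302 on the plus strand of chromosome 13. In replicate 1 there were 2 peaks in the first intron, 2458 and 4730 bp downstream of the 5′ end, and both were overlapped by peaks called against IgG. In replicate 2 a peak of 182 bp lay 320 bp downstream of the 5′ end, in the untranslated part of exon 1, and another peak lay 99106 bp downstream. RefSeq places the start of Bmp6 609 bp further downstream, and by that annotation the replicate 2 peak ends 108 bp before the gene. This peak held 13 CpG in 182 bp (7.14 per 100 bp), the densest of all member peaks. The share under peaks was 0.257% in replicate 1, 0.360% with IgG as the control, and 0.248% in replicate 2 (0.253% ± 0.00642, SD, n = 2). The longer of the replicate 1 peaks, chr13:38347565-38347846, is printed because both controls gave it, on the plus strand of GRCm38.p6 with CpG in capitals.
Bmp6 intron, replicate 1: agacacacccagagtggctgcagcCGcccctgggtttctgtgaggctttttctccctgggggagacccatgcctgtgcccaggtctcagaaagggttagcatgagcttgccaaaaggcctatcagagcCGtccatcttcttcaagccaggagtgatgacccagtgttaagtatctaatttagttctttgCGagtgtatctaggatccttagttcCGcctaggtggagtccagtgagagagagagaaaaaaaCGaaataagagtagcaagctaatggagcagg

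Bmp5 and Bmp7, ligands of the same subgroup as Bmp6, had peaks in replicate 2 alone. Bmp5 (ENSMUSG00000032179.7, chromosome 9, 75775364 to 75900310, plus strand) carried 3 replicate 2 peaks, of which 2 were intronic and 1 lay in the flank past the 3′ end, under the annotated antisense gene Gm26903. They covered 0.325% of the locus. Soft-masked repeats made up 100% of the bases of the intronic peak 17496 bp from the 5′ end. They made up 39.7% of the one 68365 bp from it and 0% of the flank peak. The peak 68365 bp from the 5′ end had the highest pileup of all replicate 2 member peaks, 7.55, with a fold enrichment of 2.95 and a −log10 p of 3.50. Bmp7 (ENSMUSG00000008999.7, chromosome 2, 172868012 to 172940321, minus strand) had 2 intronic replicate 2 peaks of 71 bp each, 47251 and 68032 bp from the 5′ end, which covered 0.173%. In replicate 1, with either control, no peak lay within 100 kb of the 5′ end of Bmp5 or Bmp7.

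Bmp2 and Bmp4, the pair of ligands best known from early tooth and bone development, had 0 peaks in all 3 lists. Such an absence is common, since 49.0% of protein-coding genes had a peak in any list. Both loci are of 10 to 30 kb, where 6.4% of genes had a peak in both replicates. Bmp2 (ENSMUSG00000027358.6) spans 133552159 to 133562885 on the plus strand of chromosome 2, and Bmp4 (ENSMUSG00000021835.15) spans 46383520 to 46390669 on the minus strand of chromosome 14. The nearest peak to the Bmp2 5′ end lay 54.5 kb upstream in replicate 1, 128.3 kb upstream against IgG and 10.4 kb upstream in replicate 2. For Bmp4 these distances were 168.2 kb, 24.1 kb and 27.6 kb, all upstream. The lists hold called peaks alone, and the lowest pileup in them amounts to 4 tags in replicate 1 and 6 in replicate 2, so that fewer tags at these loci would not appear.

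**Figure D2:**
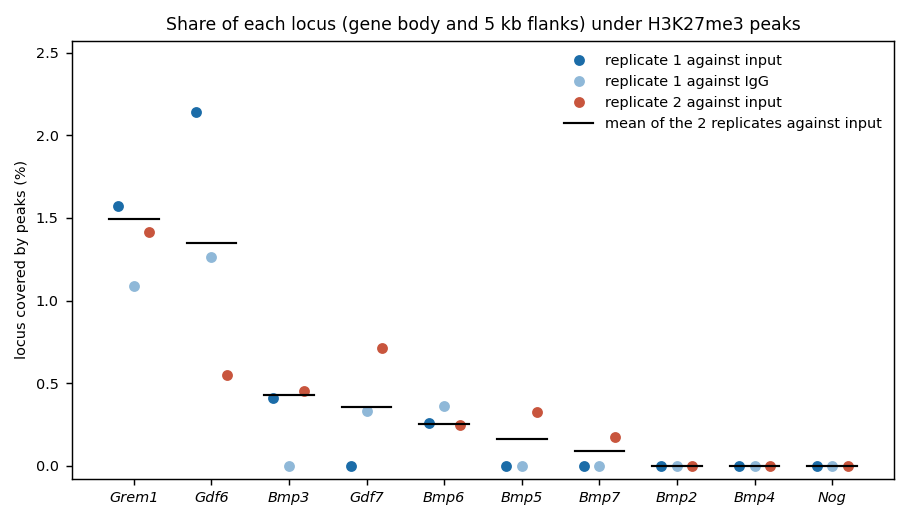
Share of each locus under peaks in percent, with a point per list and a line at the mean of the 2 replicates against input. The means of Grem1 and Gdf6 (1.49% and 1.35%) are the highest, although in replicate 2 Gdf7 (0.712%) lies above Gdf6 (0.547%), and Bmp2, Bmp4 and Nog are at 0 in every list.

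By mean covered share the order was Grem1, Gdf6, Bmp3, Gdf7, Bmp6, Bmp5 and Bmp7, followed by Bmp2, Bmp4 and Nog at 0. No neighbours in this order differed by more than the larger of their SDs. Grem1 and Gdf6 changed places with flanks of 0 kb (2.075% and 2.095%), 10 kb (1.03% and 1.35%) and 20 kb (0.639% and 1.04%). Between members further apart some differences were larger than both SDs, among them those of Grem1 from Bmp3 and of Bmp3 from Bmp6. With IgG as the control of replicate 1, however, Bmp6 (0.304%) lay above Bmp3 (0.226%). At both genes the replicates had no overlapping peaks, so the small SDs there do not show that the same positions were called. The median over the 10 members was 0% in replicate 1 and 0.286% in replicate 2, while the median over all protein-coding genes was 0% in both. That median had to be 0%, since 25.0% and 35.7% of all genes had a peak. The mean over all genes was 0.222% in replicate 1 and 0.316% in replicate 2. By Euclidean distance over the covered shares of the 3 lists, the protein-coding genes most like Grem1 were 4931409K22Rik, Prrg4 and She, at 0.232, 0.269 and 0.316 percentage points.

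**Figure D3:**
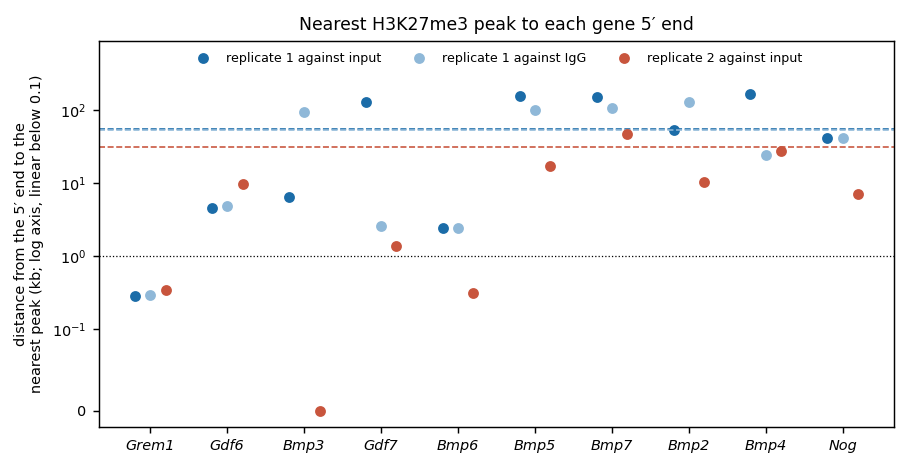
Distance in kb from each gene 5′ end to the nearest peak (log axis, linear below 0.1 kb), with a point per list, a dotted line at 1 kb and dashed lines at the median of all protein-coding genes in each list. Grem1 lies below 1 kb in all 3 lists (0.290, 0.298 and 0.343 kb), and Bmp3 and Bmp6 lie below it in replicate 2 alone.

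Peaks within 1 kb of a 5′ end were present at 1 of 10 members in replicate 1 against input (3.87% of all genes) and at 1 of 10 against IgG (4.52%), both times Grem1. In replicate 2 they were present at 3 of 10, namely Bmp3, Bmp6 and Grem1 (4.16%). In any list it was 3 of 10 members, compared with 8.56% of all genes. CpG density of the promoter gave the members another order. The ratio of observed to expected CpG within 1 kb of the 5′ end was highest at Bmp2 (0.893, above 97.5% of promoters) and Nog (0.795, above 91.4%), which had no peak, and was 0.654 at Grem1 (above 74.1%). It was lowest at Bmp5 (0.316) and Bmp4 (0.349). Altogether 8 of 10 members lay above the median of all promoters.

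The positions of single peaks recurred little. Of the 12 replicate 1 member peaks, 1 (8.33%, 95% Wilson interval 1.49% to 35.4%, which covers counting error only) was overlapped by a replicate 2 peak, where 2.85% of the whole replicate 1 list was. In the other direction it was 1 of 13 (7.69%), where 1.90% of the whole list was. The interval includes the share of the whole list. Counting a replicate 2 peak within 1 kb gave 3 of 12, at Grem1 (2 peaks) and Gdf6, where 12.7% of the whole list had one. Within 5 kb it was 6 of 12, where 31.8% of the list had one. When only the control changed, 7 of 12 replicate 1 peaks (58.3%, interval 31.95% to 80.7%) were overlapped by a peak called against IgG, compared with 51.0% of the list. These were 3 at Grem1, 2 at Gdf6 and 2 at Bmp6, and none of the 3 at Bmp3.

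In strength the member peaks had medians close to those of the lists in replicate 1, and in replicate 2 their median was the lowest pileup of the list. The median pileup was 3.20 in replicate 1 (3.19 for the list), 3.41 against IgG (3.4) and 6.00 in replicate 2 (6.16). At the lowest pileup of the list lay 6 of 12 member peaks in replicate 1 (44.5% of the list), 4 of 9 against IgG (35.1%) and 7 of 13 in replicate 2 (37.9%). The highest member pileups, 4.10 and 7.55, compare with list maxima of 38.2 and 115.5. Introns held 11 of the 12 replicate 1 peaks and 7 of the 13 replicate 2 peaks, of which another 3 touched exons and 3 lay in the flanks. Lengths had a median of 114.5 bp for the replicate 1 member peaks (119 bp for the list) and 130 bp for those of replicate 2 (181 bp). The shortest member peaks, of 46 bp in replicate 1 and 71 bp in replicate 2, were only as long as 1 fragment as modelled by MACS. Peaks were called at 0.224 per 10 kb of member locus in replicate 1 and 0.242 in replicate 2, compared with 0.0835 and 0.122 per 10 kb of the whole assembly. This is set against the whole assembly, gene deserts and gaps included, and not against other genes.

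To place the 10 genes in their pathway, 46 other BMP pathway genes were examined. Of these, 12 (26.1%) had a peak in both replicates, compared with 15.7% of protein-coding genes. No list had a peak at 19 of the 46. The others, the majority of the 46, had a peak in at least 1 list, which 49.0% of protein-coding genes had. The 46 genes were not split by length. Bmpr1a, Bmpr1b, Bmper and Crim1, among the 12, have loci over 100 kb, where 57.4% of protein-coding genes had a peak in both replicates. Other pathway loci of that length did not have one. Gdf2 was the 1 gene of the 46 with a peak within 1 kb of its 5′ end in both replicates (1.04% of all genes). The ligands Bmp10, Gdf2 and Gdf10 (3 of 9 other ligands) had covered shares of 0.487% ± 0.159, 0.95% ± 0.722 and 0.869% ± 0.406 (SD, n = 2). Gdf2 and Gdf10 are neighbours on chromosome 14 with overlapping loci, and both peaks of Gdf2 (33940243 to 33940478 in replicate 1 and 33941871 to 33941941 in replicate 2) were counted for Gdf10 as well. Against IgG none of these 3 ligands had a peak.

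Among receptors and co-receptors it was 3 of 10. Bmpr1b, a type I receptor known from cartilage, had 16 peaks in replicate 1, 14 against IgG and 8 in replicate 2 over a gene of 332.3 kb (0.658% ± 0.0533, SD, n = 2). Rgma, which encodes a co-receptor, had 12, 12 and 3 peaks (2.88% ± 1.84). Bmpr1a, the other widely used type I receptor, had 2, 1 and 1 (0.151% ± 0.0441), and the type II receptor gene Bmpr2 had 0 in each list.

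Among the other antagonists it was 5 of 15. Sost, which encodes the osteocyte product sclerostin, had 4 peaks in replicate 1, 3 against IgG and 3 in replicate 2. Its covered share of 3.31% and 5.81% (4.56% ± 1.77, SD, n = 2) was above that of 98.7% and 99.3% of protein-coding genes and above that of Grem1 in both replicates. Chrdl2 (1.19% ± 0.937), Crim1 (0.292% ± 0.343) and Bmper (0.140% ± 0.129) were lower, each with n = 2. Of the Smad mediators 1 of 6 had a peak in both replicates, Smad4, with 0.586% ± 0.481. Of the target genes Id1, Id2, Id3, Id4, Msx1 and Msx2 it was 0 of 6. These are short genes of 1.16 to 6.19 kb. Among protein-coding loci of 10 to 30 kb, to which they belong, 6.4% had a peak in both replicates, so 0 of 6 does not set them apart. Msx1 had 1 peak, in replicate 2.

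**Figure D4:**
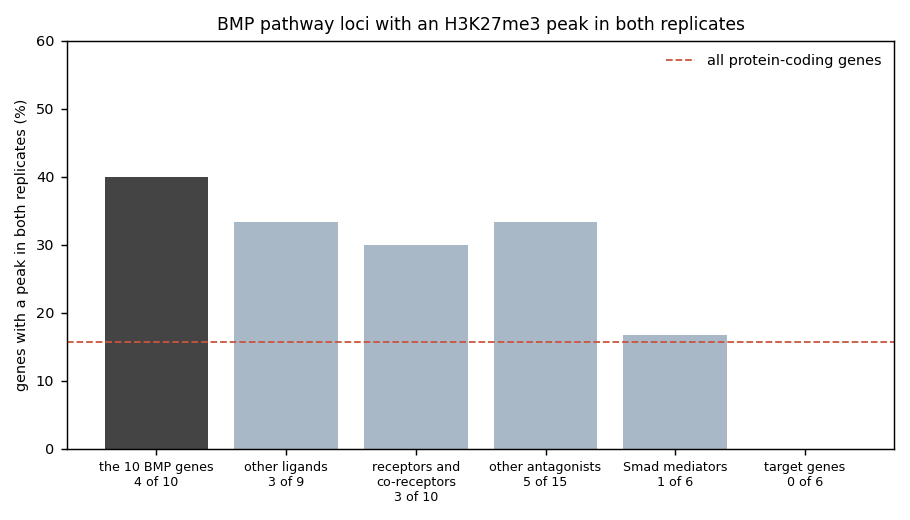
Share of genes with a peak in both replicates, in percent, for the 10 genes and for 5 other lists of BMP pathway genes, with counts under each bar and a dashed line at 15.7% for all protein-coding genes. The shares run from 0 of 6 target genes to 4 of 10, and with 6 to 15 genes per list 1 gene moves a bar by several percentage points. The dashed line is not matched for locus length. The 6 target genes have loci of 10 to 30 kb, where 6.4% of genes had a peak in both replicates.

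Facts of the whole series bear on these values as follows. After filtering, H3K27me3 replicate 1 had 30369351 tags of 49 bp and replicate 2 had 49947919 tags of 74 bp, and the control libraries had 23688420 to 51681224. Depth, tag length and replicate differ together, so that their parts in the larger number of member loci with a peak in replicate 2 cannot be told apart. The assay does not measure expression, and the tissue label could be examined only through the mark. Of 10 genes known from mesenchyme, 1 (Pax9) had a peak within 1 kb of its 5′ end in both replicates, and of 10 epithelial genes 0 did, compared with 1.04% of all genes. In the whole locus it was 4 mesenchymal genes (Col1a2, Twist1, Pax9 and Runx2) and 1 epithelial gene (Trp63), compared with 15.7% of all genes. These counts do not settle the tissue label.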

How the data were processed

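ChIP-seq was carried out on molar mesenchyme of wildtype mice, with 2 H3K27me3, 2 input and 1 IgG libraries. By the study's methods and the submitters' processing notes (BWA, SAMtools, MACS2 2.1.1, Partek), the authors mapped reads to GRCm38 and called broad peaks on uniquely mapped reads, library by library, at a p-value cutoff of 0.005. The deposited lists give for each peak the pileup, a signal in scaled tags, the fold enrichment, a ratio to the control background that includes a pseudocount, and the p-value as −log10 p. Duplicates at a position were reduced to 1 tag, and MACS modelled fragments of 46 bp (replicate 1) and 71 bp (replicate 2), shorter than the tags of 49 and 74 bp, per the file headers.

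From these lists, peaks were intersected with GENCODE M21 gene bodies and 5 kb flanks, and with 1 kb on each side of gene 5′ ends, in Python 3.11.15 with pandas 2.3.3 and pysam 0.24.0. Summaries of sequence over whole lists leave out 9 replicate 2 peaks on the mitochondrial genome. An overlap was at least 1 base. The covered share is the percent of locus bases under peaks. The interval functions were checked on simulated peaks. Sequences were read from the GRCm38.p6 genome. RefSeq starts were at hand for 5 of the 10 genes.

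The members and the pathway lists were chosen with earlier results of these data known, so no chance test was run. All 10 members are named, together with the other pathway genes with a peak in both replicates, of which 1 is counted but not reported here, and the 3 genes most like the member with the highest mean covered share. Bmpr2, Msx1 and the other target genes fall outside that rule and were named after their values were seen. Besides the Grem1 overlap, the printed sequences were chosen after the peaks were seen, and no untranslated sequence is printed. Alternatives were the flank, the promoter width, stricter peaks, the control, an equal peak number and each replicate left out.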

Additional observations from a re-analysis of the deposited data

How the results depend on the processing

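Bmp3, Bmp6, Gdf6 and Grem1 were the 4 members with a peak in both replicates at flanks of 0, 2, 10 and 20 kb as well. The share of all genes was obtained for flanks of 5 kb alone, so the counts at other flanks cannot be set against it. With IgG as the control the 4 were Bmp6, Gdf6, Gdf7 and Grem1. No paired analysis was possible because each list already sets a library against its own control and no test was made between groups.

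With a fold enrichment of 3 or higher, as with a −log10 p of 3 or higher, 0 member loci, 0 member promoters and 0 other pathway loci had a peak in both replicates, the median covered share was 0%, and 0% of replicate 1 member peaks (0 of 1) were overlapped. Of the replicate 1 member peaks against input 1 passed either cutoff, at Bmp3, where no replicate 2 peak passed. With replicate 2 reduced to the peak number of replicate 1, 1 member locus (Grem1) had a peak in both. The replicate 2 peaks of Bmp3, Bmp6 and Gdf6 were all at the lowest pileup, 6.00. Replicate 1 alone gave 4 of 10 member loci and 19 of 46 other pathway loci, compared with 25.0% of all genes. Replicate 2 alone gave 7 of 10 and 18 of 46, compared with 35.7%. Member promoters with a peak were 1 in replicate 1 (3.87% of all genes) and 3 in replicate 2 (4.16%). The median covered share was 0% and 0.286%. Promoters of 5 kb on each side gave 2 members, and the share of all genes was not obtained at that width. Overlap of 50% of the shorter peak gave 0% (0 of 12), and a replicate 2 peak within 5 kb gave 50% (6 of 12). Of 100 covered shares of single members recomputed, 71 stayed within the SD of the replicates, 13 rose and 16 fell beyond it. The 71 are partly fixed in advance and do not measure robustness. With 2 libraries, leaving 1 out moves the mean by no more than the SD. Bmp2, Bmp4 and Nog had no peaks, so stricter or fewer peaks could not change their share of 0%. No test was made for any of these values, and n is 2 libraries, whose depth and tag length also differ.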

Other observations

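Beyond the loci, the surroundings of the members were compared with those of all protein-coding genes by counting peaks within 100 kb on each side of the 5′ end. In replicate 1 against input Gdf6 had the most, 7, followed by Bmp3 with 5, Bmp6 and Grem1 with 3 each, Nog with 2 and Bmp2 with 1, while Bmp4, Bmp5, Bmp7 and Gdf7 had 0. In replicate 2 Bmp3, Bmp6, Gdf6 and Nog had 4 each, Bmp2, Bmp7 and Grem1 had 3, Bmp5 and Gdf7 had 2 and Bmp4 had 1. Called against IgG, the same replicate 1 library had 6 at Gdf6, 4 at Grem1, 3 each at Bmp6 and Nog, 2 at Gdf7, 1 each at Bmp3 and Bmp4, and 0 at Bmp2, Bmp5 and Bmp7. Bmp5 and Bmp7 thus had such peaks in replicate 2 and in neither replicate 1 list. The median over members was 1.5 in replicate 1 and 3 in replicate 2, and the medians of all genes were 1 and 2. At Bmp4, a gene whose enhancers are known to lie far away, no list had more than 1 peak in this window.

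The distance from the 5′ end to the nearest peak had a median over members of 47.9 kb in replicate 1, 32.7 kb against IgG and 8.41 kb in replicate 2, compared with 55.4, 53.4 and 31.4 kb over all genes (21755 genes in replicate 1 against input, which had no peak on the Y chromosome). This is a description of 10 genes chosen by name with earlier results of these data known, and no test was made.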
